A study of Arabidopsis thaliana with 2 samples.

Results

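MHSs at the starts of long non-coding RNA (lncRNA) genes were examined in Arabidopsis thaliana. MNase hypersensitive sites (MHSs) are regions from which a light digestion of chromatin with micrococcal nuclease (MNase) releases many small DNA fragments. An MHS was taken when its midpoint lay within 500 bp either side of the transcription start site (TSS) of an annotated lncRNA gene and more than 500 bp from the TSS of every protein-coding gene. In replicate 1, 2066 of 70046 MHSs (2.95%) met this rule, and they covered 417951 bp. In replicate 2, 1502 of 49934 MHSs (3.01%) met it and covered 358459 bp. The bases open to the rule made up 2.14% of chromosomes 1 to 5. The MHSs left after that were divided into 29755 within 500 bp of a protein-coding TSS and 38225 away from both kinds of TSS in replicate 1, and into 23154 and 25278 in replicate 2.

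The data comprised 2 MH-seq libraries from seedlings of ecotype Columbia (Col-0), with no mutant, transgene or treatment. The seedlings were 2 weeks old, had grown at 23 °C with 16 h of light and 8 h of darkness, and were fixed with 1% formaldehyde before fragments below 100 bp were taken. The libraries formed 1 group of biological replicates, and no conditions could be compared. The library whose label has no number is called replicate 1, and the other is labelled replicate 2. The study reports more chloroplast reads and a higher background, with a smaller fraction of reads in peaks, for its second library. The libraries were thus not alike in quality, and the part of this in differences between the lists was not tested. Whole seedlings mix leaf, stem and root cells, so an MHS present in few cells and a weak MHS present in all cannot be told apart. The lists give the ends of each MHS on the TAIR10 assembly and hold no read count, so the depth behind a single MHS is unknown here and all intervals cover the counting of MHSs or genes only.

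lncRNAs are transcripts that are not translated into a conserved protein, and plants make them from the space between genes and from the strand opposite to protein-coding genes. Their transcription needs an open promoter, as that of mRNAs does, and an active promoter is usually a short stretch free of nucleosomes just upstream of the TSS. Plant lncRNAs are best known from flowering time and from responses to cold and nutrients, where antisense transcripts at the floral repressor gene FLC, collectively called COOLAIR, are a standard example. The annotation used here, RefSeq for TAIR10.1, holds 3480 lncRNA genes. Of these, 2059 shared no base with a protein-coding gene and are called intergenic, 1360 overlapped a protein-coding gene on the opposite strand and are called antisense, and 61 overlapped one on the same strand. Their median length was 314 bp for intergenic and 409.5 bp for antisense genes, and 0 of them carried a gene symbol, so they are named by locus and by the genes beside them.

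The following stretches show what the MHSs look like as DNA. Those of MHSs centred on a TSS came from a fixed rule, and the others were picked for display with their values known. They were read from the RefSeq TAIR10.1 sequence in the direction of each lncRNA gene. Capitals mark matches to a motif on either strand. The letters searched were TATAAA for the core promoter element known as the TATA box, CACGTG for the G-box, and AAACCCTA for the telo-box. The site II element was searched in a C form, TGGGCC, as well as in a T form, which reads TGGGCT instead. The W-box was likewise searched in a C form, TTGACC, as well as in a T form, which reads TTGACT instead. The remaining searches were for the GAGA repeat, written GAGAGA here, and for the evening element, written AAAATATCT here. A match is a description of letters and not evidence of binding.

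The antisense start at FLC is shown first, chr5:3173079-3173370 on the plus strand, which is the part of its MHS outside FLC and ends at the base before the TSS. It holds 2 site II matches, 2 TATA box matches, both more than 200 bp from the TSS, and 1 GAGA repeat.
AT5G01675: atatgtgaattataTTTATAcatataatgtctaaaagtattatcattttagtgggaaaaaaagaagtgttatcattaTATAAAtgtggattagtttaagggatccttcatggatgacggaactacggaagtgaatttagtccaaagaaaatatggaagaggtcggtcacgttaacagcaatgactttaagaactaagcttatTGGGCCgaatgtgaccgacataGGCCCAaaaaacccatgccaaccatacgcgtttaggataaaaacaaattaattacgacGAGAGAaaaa
The MHS upstream of the lncRNA gene that meets the 3′ end of DREB1A, a cold-response transcription factor gene also called CBF3, is shown whole, chr4:13016952-13017062 on the plus strand.
AT4G07385: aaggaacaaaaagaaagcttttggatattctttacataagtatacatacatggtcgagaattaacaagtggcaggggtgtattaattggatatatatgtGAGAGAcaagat
The next 2 stretches lie in the longest MHSs of the set, and show a G-box with a site II match, chr1:25997661-25997751 on the minus strand, and 3 site II matches within 111 bp, chr3:21832177-21832287 on the plus strand.
AT1G09047: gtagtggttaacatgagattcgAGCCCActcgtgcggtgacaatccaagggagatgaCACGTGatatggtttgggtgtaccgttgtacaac
AT3G09185: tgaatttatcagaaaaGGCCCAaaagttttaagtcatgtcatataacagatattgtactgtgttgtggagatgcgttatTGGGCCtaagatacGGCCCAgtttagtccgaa
MHSs centred within 1 bp of a lncRNA TSS are shown next, since they place the start of transcription in the middle of the accessible stretch. They are chr3:10038172-10038273 on the minus strand with the TSS at its base 52, chr1:5131412-5131612 on the plus strand, the middle of a longer MHS with the TSS as its central base, and chr1:12986925-12987210 on the minus strand with the TSS at its base 145.
AT3G05205: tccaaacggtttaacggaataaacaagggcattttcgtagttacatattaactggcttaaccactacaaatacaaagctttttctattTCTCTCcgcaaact
AT1G05127: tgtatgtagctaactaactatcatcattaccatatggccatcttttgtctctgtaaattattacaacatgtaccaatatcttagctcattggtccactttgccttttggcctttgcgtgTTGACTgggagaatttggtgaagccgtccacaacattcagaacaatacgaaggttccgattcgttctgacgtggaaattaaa
AT1G06867: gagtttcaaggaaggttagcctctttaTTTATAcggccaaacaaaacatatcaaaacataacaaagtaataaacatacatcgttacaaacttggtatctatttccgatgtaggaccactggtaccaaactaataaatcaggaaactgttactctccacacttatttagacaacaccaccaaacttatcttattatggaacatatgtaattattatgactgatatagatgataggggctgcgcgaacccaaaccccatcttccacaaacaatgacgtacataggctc
The last are 3 neighbouring short MHSs upstream of an intergenic lncRNA gene that did not overlap replicate 2, chr5:17525107-17525192, chr5:17525199-17525275 and chr5:17525289-17525353, all on the minus strand. Between them they hold 1 motif match, a TATA box, and are rich in A and T (67.4%, 76.6% and 73.8%).
AT5G06525 short MHS a: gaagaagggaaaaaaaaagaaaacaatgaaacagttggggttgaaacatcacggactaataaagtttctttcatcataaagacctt
AT5G06525 short MHS b: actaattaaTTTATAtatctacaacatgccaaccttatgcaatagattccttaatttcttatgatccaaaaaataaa
AT5G06525 short MHS c: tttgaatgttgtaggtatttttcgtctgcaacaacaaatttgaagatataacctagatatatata

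The first question was whether MHSs gather at lncRNA TSSs. Outside protein-coding genes, the window around lncRNA TSSs held 1020 MHS midpoints per Mb (95% Poisson interval 972 to 1070) in replicate 1 and 749 (708 to 792) in replicate 2. The ring over 500 and up to 1500 bp from a lncRNA TSS held 960 (919 to 1000) and 679 (645 to 715). Sequence farther from both kinds of TSS held 612 (605 to 620) and 406 (400 to 412), and the windows of protein-coding TSSs held 1850 (1830 to 1880) and 1320 (1290 to 1340). The starts of lncRNA genes thus lay in neighbourhoods with more MHSs than distant sequence. The window was somewhat above the ring in both replicates. Their intervals overlapped, which is not a test, and the difference between window and ring was not tested. Inside protein-coding genes the step was larger, from 276 (254 to 299) in the ring to 409 (368 to 454) per Mb in the window in replicate 1, and from 188 (170 to 207) to 282 (248 to 320) in replicate 2. Density in the window differed by gene feature, with 969 per Mb in 3′ UTRs and 97.5 in coding sequence in replicate 1. The features of the ring were not counted, so their part in this step was not tested.

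In finer bins, MHSs of intergenic lncRNA genes reached 1150, 1160 and 1140 midpoints per Mb in the 3 bins of 100 bp from 100 bp upstream to 200 bp downstream of the TSS in replicate 1, where the bin before held 954 and the bin after 941. The intervals of these bins overlapped those of their neighbours (993 to 1320 just upstream of the TSS and 812 to 1110 in the bin before), and a bin far from the TSS, 1100 to 1200 bp downstream, held as many (1180, 992 to 1380). In replicate 2 the same 3 bins held 814 (685 to 959), 1090 (941 to 1250) and 1070 (928 to 1230), with 468 (370 to 584) before and 768 (647 to 905) after, and the distant bin held 821 (670 to 997), so the rise there lay mostly downstream of the annotated TSS. At antisense lncRNA genes the highest bin near the TSS was the 100 bp just upstream, with 817 per Mb in replicate 1 and 535 in replicate 2. At protein-coding genes this bin held 3350 and 2660 per Mb, and the density fell to 199 and 109 in the bin 400 to 500 bp downstream. At antisense lncRNA genes the same bin held 282 and 268, and at intergenic lncRNA genes 997 and 576. The last values are not like those of protein-coding genes. Intergenic lncRNA genes were scored outside protein-coding genes only, and with a median length of 314 bp many of them end before this bin.

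**Figure D1:**
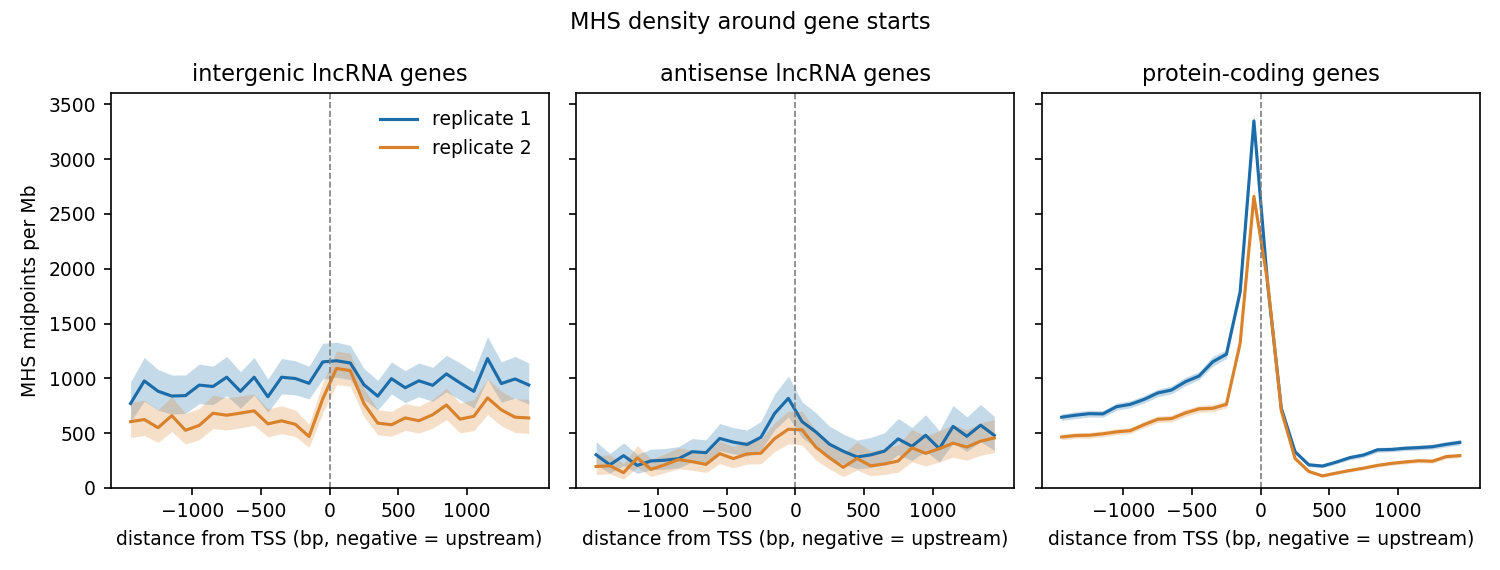
MHS midpoints per Mb (y axis) by distance from the TSS in bins of 100 bp (x axis, bp) for intergenic lncRNA, antisense lncRNA and protein-coding genes in both replicates, with 95% Poisson intervals as shading. Bases within 500 bp of a protein-coding TSS were left out for lncRNA genes, and intergenic lncRNA genes were scored outside protein-coding genes only. The protein-coding peak reaches 3350 per Mb in replicate 1, while intergenic lncRNA genes reach 1160 near the TSS, about as high as their bin 1100 bp downstream (1180), and antisense genes 817.

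MHSs at lncRNA starts were divided almost evenly over the TSS. In replicate 1, 1087 of 2066 midpoints (52.6%, exact 95% interval 50.4 to 54.8) lay upstream, against 70.8% (70.3 to 71.3) of MHSs at protein-coding starts, a difference of -18.2 percentage points (SE 1.13, two-sided Fisher's exact test, p = 6.50e-63). In replicate 2 the shares were 46.0% (43.5 to 48.6) and 64.6% (64.0 to 65.2). At antisense genes the bins 100 to 200 bp from the TSS held 679 midpoints per Mb upstream and 511 downstream in replicate 1, and 449 and 372 in replicate 2. At intergenic genes they held 954 upstream and 1140 downstream in replicate 1, and 468 and 1070 in replicate 2. Only the last pair had intervals that did not overlap. Midpoints within 100 bp of the TSS made up 26.4% (24.5 to 28.4) of the MHSs at lncRNA starts and 46.1% (45.6 to 46.7) of those at protein-coding starts (Fisher's exact p = 5.23e-71). The TSS base itself lay inside 570 of the 2066 MHSs (27.6%). Here and in all comparisons of MHSs or genes, p measures counting within 1 library, and neighbouring MHSs are not independent. By rule 63 MHSs lay within 20 bp inside the 500-bp limit, 72 lay within 20 bp outside it, 18 were within 20 bp beyond the limit set for protein-coding TSSs, and 865 near a lncRNA TSS were left out for a protein-coding TSS.

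Many lncRNA genes had no MHS at their start. Of 1988 lncRNA genes whose TSS was more than 1000 bp from any protein-coding TSS, 1009 (50.8%, exact 95% interval 48.5 to 53.0) had an MHS midpoint within 500 bp in replicate 1 and 830 (41.8%, 39.6 to 44.0) in replicate 2. Of 20809 protein-coding genes chosen in the same way, 76.7% (76.1 to 77.3) had one in replicate 1 and 67.5% (66.8 to 68.1) in replicate 2, where the share over all 27444 protein-coding genes in replicate 1 was 78.9%. The difference was -25.9 percentage points (SE 1.16, Fisher's exact p = 3.01e-125) in replicate 1 and -25.7 (SE 1.15, p = 5.22e-111) in replicate 2. An MHS was present in both replicates at 766 of the 1988 lncRNA genes and in neither at 915, while 243 had one in replicate 1 alone and 64 in replicate 2 alone. In that order these were 38.5%, 46%, 12.2% and 3.22% of the lncRNA genes, beside 65.5%, 21.3%, 11.2% and 2.04% of the protein-coding genes. The TSS base lay inside an MHS at 22.4% (20.6 to 24.3) of these lncRNA genes and at 56.6% (55.9 to 57.3) of the protein-coding genes in replicate 1.

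The share with an MHS went with the position of the lncRNA gene. Intergenic lncRNA genes had an MHS in 57.0% (54.4 to 59.6) of 1396 cases and lncRNA genes that overlap a protein-coding gene in 36.0% (exact interval 32.1 to 40) of 592, a difference of -21.0 percentage points (SE 2.38, Fisher's exact p = 9.34e-18). In replicate 2 the difference was -16.9 (SE 2.31, Fisher's exact p = 1.98e-12). Among antisense lncRNA genes the share was 30.3% (26.3 to 34.5) of 508 where the TSS lay inside the protein-coding gene, and 72.4% (60.9 to 82.0) of 76 where the TSS lay outside it, so that only the rest of the transcript met the gene. Intergenic lncRNA genes had an MHS in 62.2% (58.2 to 66.1) of cases up to 2000 bp from the nearest protein-coding TSS, in 59.4% (55.5 to 63.3) from there to 5000 bp and in 31.1% (24.3 to 38.5) beyond 5000 bp. The intervals of the first 2 distance classes overlapped, and in replicate 2 the shares were 51.6%, 49.7% and 20.3%.

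**Figure D2:**
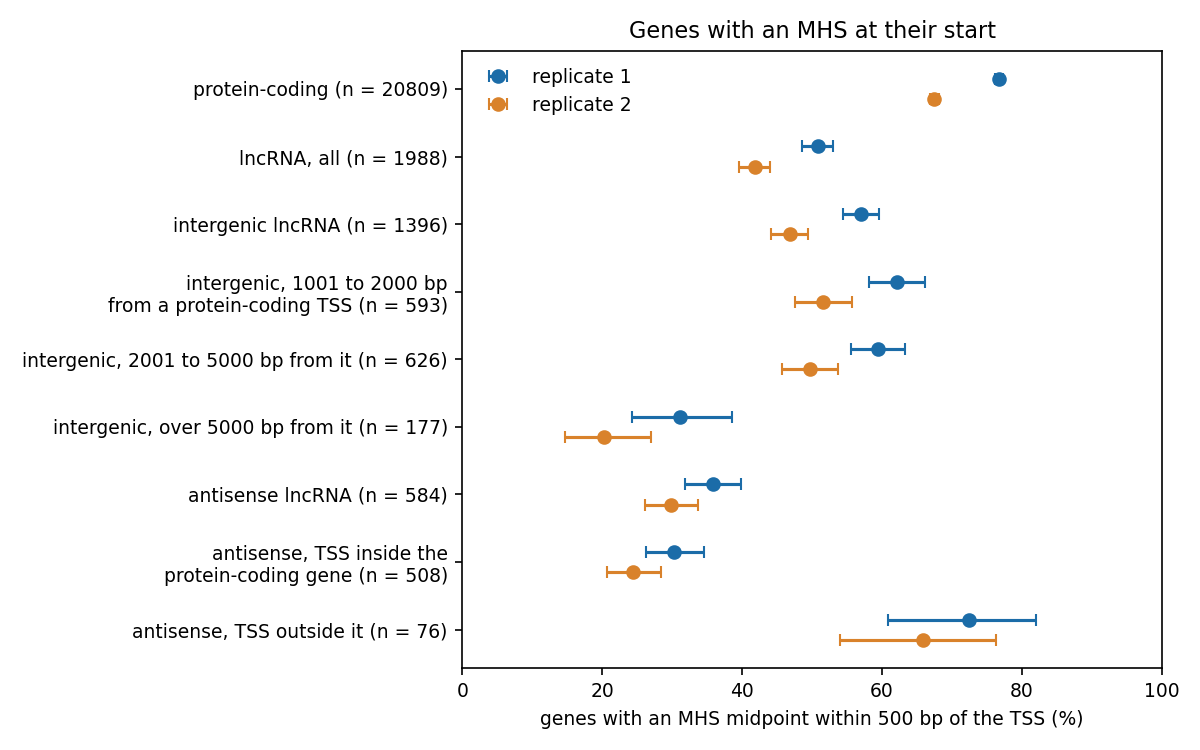
Share of genes with an MHS midpoint within 500 bp of the TSS (x axis, %) for protein-coding genes and for lncRNA genes by position (y axis, with the number of genes), in replicates 1 and 2. Bars are exact 95% binomial intervals. The lowest shares in replicate 1 are those of antisense genes with the TSS inside the protein-coding gene (30.3%) and of intergenic genes beyond 5000 bp (31.1%).

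MHSs at lncRNA starts were shorter than those at protein-coding starts in replicate 1, while in replicate 2 the lengths were nearly alike. In replicate 1 the lengths at lncRNA starts ran from 40 to 1435 bp around a median of 142 bp and averaged 202 ± 170 bp (SD, n = 2066 MHSs). At protein-coding starts the median was 204 bp and the mean 228 bp, and away from both the median was 117 bp. Short MHSs, taken as those up to 100 bp, were 37.1% (35.0 to 39.2) of those at lncRNA starts, 26.4% (25.9 to 26.9) of those at protein-coding starts and 44.2% (43.7 to 44.7) of those away from both. The difference from protein-coding starts was 10.7 percentage points (SE 1.09, Fisher's exact p = 1.39e-24). In replicate 2 short MHSs were rarer in every class, with 12.6% (10.9 to 14.4) at lncRNA starts and 9.31% (8.94 to 9.69) at protein-coding starts (Fisher's exact p = 5.22e-05). The medians there were 204 bp at lncRNA and 211 bp at protein-coding starts, the means were 239 and 237 bp, and MHSs above 400 bp were the more frequent at lncRNA starts, with 13.3% (11.6 to 15.1) against 10.5% (10.1 to 10.9). The very short ones, up to 75 bp, were 23.8% of those at lncRNA starts in replicate 1 and 0.399% in replicate 2. At protein-coding starts they were 16.6% and 0.281%, so this difference between the lists was not particular to lncRNA starts.

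Of the 2066 MHSs at lncRNA starts in replicate 1, 1294 (62.6%, exact 95% interval 60.5 to 64.7) shared at least 1 bp with an MHS of replicate 2. The share over all MHSs of replicate 1 was 61.9%, and that of MHSs at lncRNA starts lay close to it. It stood between those of the other classes. The difference from the 71.9% (71.3 to 72.4) of protein-coding starts was -9.23 percentage points (SE 1.10, Fisher's exact p = 2.13e-18), and that from the 54.1% (53.6 to 54.6) of MHSs away from both was 8.52 (SE 1.09, Fisher's exact p = 2.67e-14). In the reverse direction, 1276 of 1502 MHSs of replicate 2 (85.0%, 83.0 to 86.7) overlapped replicate 1, beside 86.9% over all MHSs of replicate 2, 93.0% at protein-coding starts and 81.5% away from both.

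Overlap went with length in both lists. A longer MHS meets the limit of 1 shared bp more easily, and the part of this in the rise with length was not tested. In replicate 1 the share at lncRNA starts was 27.8% (24.7 to 31.1) of 766 short MHSs, 65.1% (60.9 to 69.1) of 547 MHSs above that and up to 200 bp, 94.5% (92.1 to 96.3) of 507 from there to 400 bp and 246 of 246 above 400 bp. Among MHSs over 100 bp, the share was 83.2% at lncRNA starts and 86.9% at protein-coding starts, a difference of -3.76 percentage points (SE 1.06, Fisher's exact p = 1.78e-04). Among short MHSs the difference was -2.08 (95% interval -5.41 to 1.25, Fisher's exact p = 0.246), which did not pass the threshold of 0.05. Leaving out the short MHSs of replicate 1 thus reduced the difference from protein-coding starts by more than 1.5 times. Against MHSs away from both, the differences in replicate 1 were 5.49 (SE 1.08, Fisher's exact p = 2.24e-06) over 100 bp and 3.44 (SE 1.65, p = 0.0318) at or below it.

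In replicate 2 the share at lncRNA starts went from 57.1% (49.8 to 64.3) of 189 short MHSs to 200 of 200 above 400 bp, and the difference from protein-coding starts was present at both lengths. It was -8.01 percentage points (SE 0.938, Fisher's exact p = 1.35e-24) over all lengths, -6.31 (SE 0.877, p = 6.92e-19) over 100 bp and -13.4 (SE 3.73, p = 2.00e-04) for short MHSs. Splitting by length therefore took away much of the difference in replicate 1 and little of it in replicate 2. Against MHSs away from both, the difference in replicate 2 was 3.46 (SE 0.954, Fisher's exact p = 6.68e-04) over all lengths and 1.97 (SE 0.896, p = 0.0376) over 100 bp, and for short MHSs it was 2.19 (95% interval -5.02 to 9.40, p = 0.601), which did not pass.

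**Figure D3:**
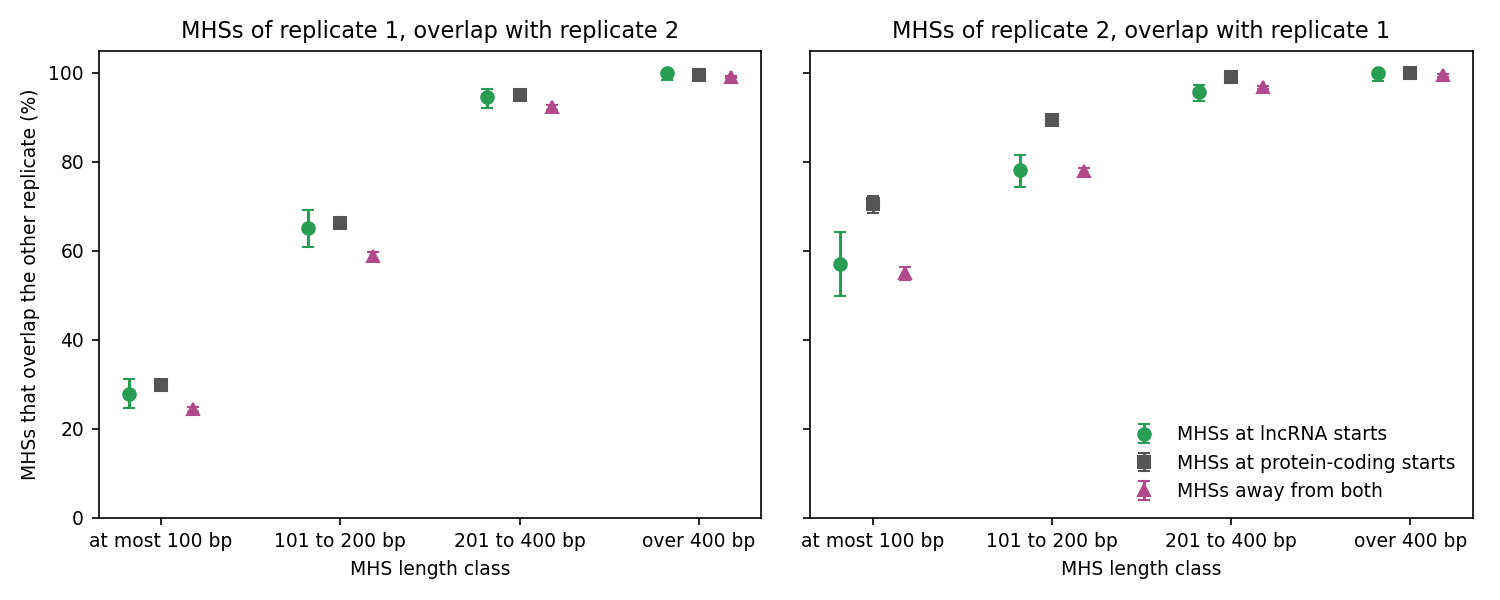
Share of MHSs that overlap the other replicate by at least 1 bp (y axis, %) by length class (x axis) for MHSs at lncRNA starts, at protein-coding starts and away from both, with exact 95% binomial intervals. The left panel takes MHSs of replicate 1 and the right panel those of replicate 2. At lncRNA starts in replicate 1 the share goes from 27.8% of short MHSs to all 246 above 400 bp.

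Within the set, overlap also went with position. MHSs with the midpoint within 100 bp of the TSS overlapped replicate 2 in 72.0% (68.0 to 75.7) of 546 cases and those farther out in 59.3% (56.8 to 61.8) of 1520. MHSs at or downstream of the TSS overlapped in 69.7% (66.7 to 72.5) of 979 cases and those upstream in 56.3% (53.3 to 59.3) of 1087. These groups differed in length too, with a median of 169 bp downstream and 126 bp upstream, and over 100 bp the shares were 86.2% (83.3 to 88.7) and 79.9% (76.6 to 83.0). MHSs whose nearest lncRNA gene was intergenic overlapped in 62.8% (60.3 to 65.2) of 1580 cases and those of antisense genes in 61.8% (57.3 to 66.3) of 469, with a median of 142 bp in both. The other 17 MHSs belonged to lncRNA genes on the same strand as the gene they overlap.

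The base composition and motifs of the MHSs, which the rule did not use, were described next. MHSs at lncRNA starts in replicate 1 were 68.3% ± 6.88 A/T (mean ± SD, 2066 MHSs), with 66.8% in flanks of equal length 500 bp away. Those that overlapped replicate 2 were 66.0% A/T and those that did not 72.3%, and MHSs at protein-coding starts were split alike, with 66.5% and 73.1%. In replicate 2 the set was 63.9% ± 4.67 A/T, below its flanks at 66.9%, and MHSs that overlapped replicate 1 were 64.2% A/T and those that did not 62.4%. The direction of the difference from the flanks, and of that between overlapping and other MHSs, thus depended on the library. MNase cuts A/T-rich DNA more readily, and its part in these differences was not tested.

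Motifs were counted in the 300 bp around each midpoint, on both strands. A G-box, the core element bound by many bZIP and bHLH transcription factors, was found in 13.5% of windows of MHSs that overlapped replicate 2 and in 3.37% of those that did not. Site II elements, known from promoters of ribosomal protein and other growth genes, were found in 20.3% and 3.76% of these windows in the C form and in 19.6% and 6.09% in the T form. Overlapping MHSs were also longer, with a median of 226 bp against 75 bp, and the contrast was wider among the long MHSs. Over 100 bp the G-box shares were 14.4% (12.4 to 16.7) with overlap and 1.83% (0.50 to 4.61) without, and those of the C form of site II were 23.2% (20.8 to 25.9) and 5.94% (3.20 to 9.94). Among short MHSs the G-box shares were 8.45% (5.09 to 13.0) and 3.98% (2.51 to 5.96), those of the C form 5.63% (2.94 to 9.63) and 2.89% (1.66 to 4.66), and those of the T form 8.45% and 5.06%, with intervals that overlapped for all 3. Over the whole set the shares were 9.69% for the G-box and 14.1% and 14.5% for the C and T forms of site II, beside 7.68%, 12.3% and 12.2% over all MHSs of replicate 1 and 8.69%, 15.6% and 14.6% at protein-coding starts. At 979 lncRNA TSSs without an MHS they were 2.04%, 3.78% and 8.17%, in windows centred on the TSS that were 63.1% A/T. The TATA box letters went the other way, with 47.6% of overlapping and 57.5% of other MHS windows, where the windows were 65.7% and 69.9% A/T and the motif is made of A and T alone. The G-box and site II letters hold more G and C than A and T, and the part of base composition in their contrasts was not tested. The W-box, bound by WRKY factors, was found in 16.6% and 11.1% of overlapping and other windows in its C form. In its T form the shares were 21.5% (19.3 to 23.8) and 17% (14.4 to 19.8), with intervals that overlapped. Over the whole set the C and T forms were in 14.6% and 19.8%, beside 13.9% and 21.8% over all MHSs of replicate 1. The telo-box (3.63% and 4.27%), the GAGA repeat (25.1% and 21.2%) and the evening element of clock-regulated promoters (2.32% and 2.59%) differed less. GAGA repeats were more frequent at protein-coding starts, with 34.1% of MHS windows.

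**Figure D4:**
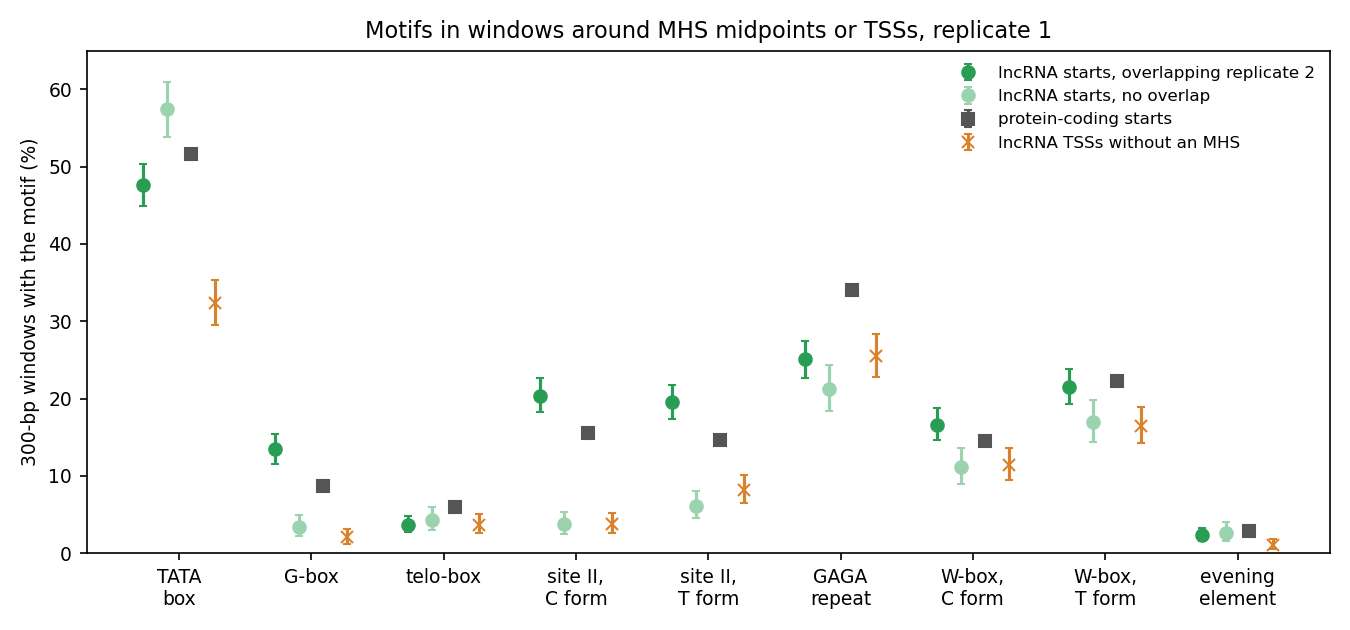
Share of 300-bp windows with a match to each motif on either strand (y axis, %) for MHSs at lncRNA starts with and without overlap in replicate 2, MHSs at protein-coding starts and lncRNA TSSs without an MHS, all from replicate 1. Bars are exact 95% binomial intervals. The G-box and both site II forms are more frequent in overlapping MHSs (13.5%, 20.3% and 19.6%) than in the others (3.37%, 3.76% and 6.09%). The others are also shorter (median 226 against 75 bp), and their windows are richer in A and T (65.7% against 69.9%).

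In the annotation, 1708 of the 2066 midpoints (82.7%) lay outside protein-coding genes, 180 in 3′ UTRs, 115 in introns, 41 in coding sequence and 22 in 5′ UTRs. Per Mb of the bases open to the rule, this was 1020 outside protein-coding genes, 969 (833 to 1120) in 3′ UTRs, 903 (566 to 1370) in 5′ UTRs, 470 (388 to 564) in introns and 97.5 (70.0 to 132) in coding sequence. In replicate 2 it was 749, 576 (472 to 696), 697 (406 to 1120), 237 (180 to 306) and 155 (119 to 197) in the same order. Coding sequence was the lowest in both replicates, although its density was higher in replicate 2, while the others were lower there. Of the 2066 MHSs, 514 (24.9%) lay within 500 bp of the end of a protein-coding gene. A TSS of another RNA gene or a pseudogene lay within 500 bp of 128 MHSs (6.20%).

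The MHSs belonged to 1337 lncRNA genes in replicate 1, of which 798 had 1 MHS and 539 had several. Those with several had neighbouring midpoints a median of 276 bp apart. In replicate 2 the set belonged to 1102 genes, of which 322 had several. Where an MHS of replicate 1 overlapped replicate 2, it met exactly 1 MHS in 1122 cases and 2 or more in 172. An MHS of replicate 2 likewise met 2 or more of replicate 1 in 212 cases, so the edges of MHSs differed between the lists in both directions.

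The antisense start at FLC was also chosen after its values were seen. At FLC the annotation places the lncRNA gene AT5G01675 on the plus strand of chromosome 5 from 3173371 to 3179600 and notes that it is antisense to FLC, which lies on the minus strand from 3173382 to 3179448. In replicate 1 an MHS of 346 bp ran from 3173079 to 3173424, with its midpoint 120 bp upstream of the lncRNA TSS and the TSS base inside it. In replicate 2 an MHS of 236 bp ran from 3173137 to 3173372. Both lists thus placed an MHS across the antisense start, which sits at the 3′ end of FLC, and that of replicate 1 reached 43 bp into FLC. The edges of the lists differed by 58 bp upstream and 52 bp downstream. A short MHS of 66 bp centred 262 bp downstream of the TSS was in replicate 1 alone.

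The 4 longest MHSs of the set all overlapped replicate 2 and were met there by 2 to 4 MHSs each. The longest, 1435 bp on chromosome 1 from 25996527 to 25997961, spanned the whole of the lncRNA gene AT1G09047, which has 447 bp on the minus strand, and shared 994 bp with 3 MHSs of replicate 2. An MHS of 1419 bp on chromosome 3 from 21830992 to 21832410 at AT3G09185 also covered its lncRNA gene and shared 1207 bp with 2 MHSs. It began between that gene and PIL6, the phytochrome-interacting factor gene also called PIF5, whose minus-strand TSS at 21830837 lay 155 bp from the MHS, so this MHS also borders a protein-coding promoter. An MHS of 1298 bp on chromosome 2 from 19178414 to 19179711 was centred 20 bp upstream of AT2G09750 and shared 1157 bp with 4 MHSs. The last, 1060 bp on chromosome 5 from 210246 to 211305, spanned the TSS of AT5G01542, a lncRNA gene antisense to the lectin receptor kinase gene LECRKA4.1. It also covered the facing 3′ ends of LECRKA4.1 and of LHCB4.1, a light-harvesting gene, and shared 946 bp with 2 MHSs of replicate 2. The TSS of AT5G01542, at 211017, lay in a gap between these 2, which ended at 210978 and began at 211084.

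The 3 MHSs centred nearest to a TSS, whose sequences are given above, measured 498 bp at AT1G05127, 102 bp at AT3G05205 and 286 bp at AT1G06867. All lay at intergenic lncRNA genes, more than 1500 bp from the nearest protein-coding TSS. AT1G05127 lies between the cadmium resistance genes PCR2 and PCR1, and its MHS ran from 5131264 to 5131761 in replicate 1 and from 5131268 to 5131781 in replicate 2.

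The longest MHSs without overlap were 352 bp at AT4G06945, 342 bp at AT2G09435 and 335 bp at AT2G19572, a gene antisense to the cytidine deaminase gene CDA1. The nearest MHS of replicate 2 lay 6169 bp from the first, 161 bp from the second and 103 bp from the third. The A/T content of the third was 80.9%, above the mean of the set.

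Of the genes with most MHSs, 4 had 5 each in replicate 1. At AT4G09115, an intergenic gene between LHT7 and LOG5, the MHSs measured 91, 66, 309, 76 and 159 bp and the last 3 overlapped replicate 2. At AT5G06525 they measured 264, 78, 86, 77 and 65 bp. The first, which spanned the TSS, and the second, just upstream, overlapped the same MHS of replicate 2, the second by 14 bp. The 3 farther upstream did not overlap replicate 2. At AT2G09010 1 of 5 overlapped, a 69-bp MHS centred 140 bp upstream of the TSS. At AT4G17098, which is antisense to AT4G17100, a gene for a poly(U)-specific endoribonuclease, 0 of 5 overlapped, and their lengths were 54 to 138 bp. Of the 20 MHSs at these 4 genes, 15 were short and 6 overlapped replicate 2.

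Further loci at known regulators were likewise chosen after their values were seen, and the antisense genes among them all had MHSs in both replicates. They do not show the whole range. Of 584 antisense lncRNA genes more than 1000 bp from a protein-coding TSS, 60.8% had an MHS in neither replicate and 26.4% in both. At TCP9, a TCP family transcription factor gene, an MHS of 919 bp in replicate 1 spanned the TSS of AT2G45685, which begins 23 bp inside the 3′ end of TCP9, and was met by MHSs of 524 and 444 bp in replicate 2. At DREB1A the lncRNA gene AT4G07385 had an MHS of 111 bp in replicate 1 and of 100 bp in replicate 2, centred 134 and 123 bp upstream of its TSS, and longer MHSs of 552 and 594 bp in replicate 1 covered the start of the neighbouring gene CBF2 and the 3′ end of DREB1A. AT4G07395, a lncRNA gene upstream of DREB1A, had 0 MHS midpoints within 500 bp of its TSS in both replicates. MHSs of 444 and 462 bp in replicate 1 were centred 676 bp upstream and 1240 bp downstream of it. At RCI2A, a gene induced by cold and salt, AT3G01795 had 4 MHSs, of which 3 overlapped replicate 2 and the fourth, 90 bp long, did not. At NAC1, a NAC domain transcription factor gene, AT1G08087 had MHSs of 194 and 607 bp, and replicate 2 held 3 MHSs in the same window. At AT1G69570, a Dof-type zinc finger gene, the antisense gene AT1G69572 had an MHS of 447 bp in replicate 1 and of 318 bp in replicate 2 across its TSS, and a 77-bp MHS in replicate 1 alone.

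AT1G08757 is an intergenic lncRNA gene on the plus strand of chromosome 1 from 24339371 to 24340154, 5372 bp beyond the 3′ end of FT, the gene of the mobile flowering signal, and was chosen in the same way. Replicate 1 held 4 MHSs of 75, 79, 67 and 126 bp at its start. Replicate 2 held 2 longer MHSs, of 207 bp from 24339066 to 24339272 and of 250 bp from 24339283 to 24339532, which met 3 of the 4. The second of these spanned the TSS, where replicate 1 had a gap, so the lists differed at the TSS itself.

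**Figure D5:**
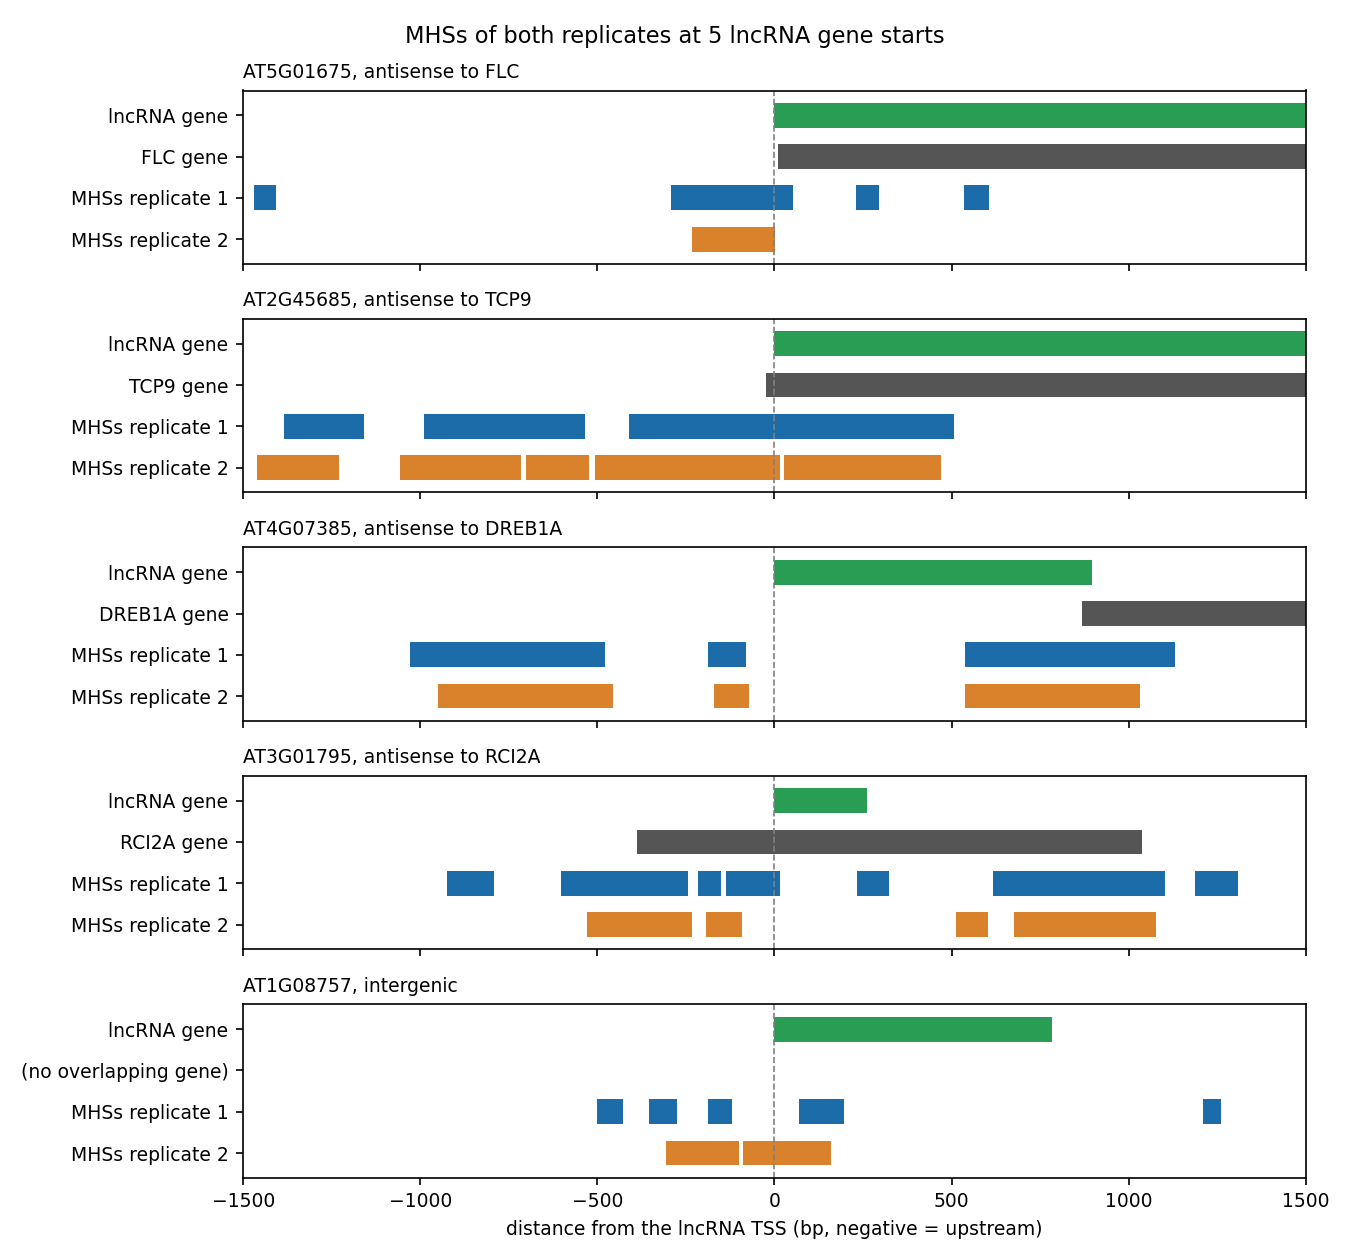
MHSs of replicate 1 and replicate 2 at 5 lncRNA genes, drawn by distance from the lncRNA TSS (x axis, bp, 1500 bp on either side), with the lncRNA gene and the protein-coding gene it overlaps (rows of each panel). At AT5G01675 (FLC) and AT2G45685 (TCP9) MHSs of both replicates cover the TSS, at AT4G07385 (DREB1A) both have an MHS upstream of it, and at AT1G08757 MHSs of replicate 2 cover the TSS where replicate 1 has a gap.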

How the data were processed

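The study made 2 MH-seq libraries from Col-0 seedlings. Per the labels and the study's methods, reads were trimmed with cutadapt and aligned to TAIR10 with Bowtie2, and the authors called MHSs in each library with Jazz. The list of replicate 2 holds 49934 MHSs, more than the number of peaks the study reports for its second library, and the reason is not given. Reads aligned over their full length and above a limit of mapping quality were kept. Tool versions and the cut-off used in Jazz are not given in the sources used here. The deposited lists hold positions only, neither counts nor signal. Starts were taken to count from 0, since 19 of 19 site sequences listed by the study then matched the reference and replicate 1, and positions given here count from 1. Gene models were those of RefSeq for TAIR10.1, and a TSS is the first base of a gene.

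An overlap needed at least 1 bp. Shares have exact (Clopper-Pearson) and densities Poisson 95% intervals, and differences were tested with two-sided Fisher's exact tests (threshold 0.05). Named loci were to be those with a name in the annotation, of which there were 0, the 4 longest MHSs, the 3 genes with most MHSs with ties kept, the 3 MHSs nearest to a TSS that overlap replicate 2 and the 3 longest without overlap. Other loci were chosen after their values were seen, and the text says so at each. Members, lists and tests were chosen with earlier results of these data known. Python 3.11.15, numpy 2.4.6, scipy 1.17.1 and matplotlib 3.10.9 were used, and 14 of 14 tests on simulated data gave the known answer. Alternatives changed the window, overlap, length limit, merging within 50 bp and replicate.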

Additional observations from a re-analysis of the deposited data

How the results depend on the processing

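The tested differences kept their direction and their side of the threshold in 35 of 36 alternatives. The exception was the overlap of short MHSs at lncRNA and at protein-coding starts, which differed by -2.08 percentage points (Fisher's exact p = 0.246), and the cause was not tested. Short MHSs of replicate 2 differed by -13.4 (Fisher's exact p = 2.00e-04). Taking only midpoints outside protein-coding genes, an alternative chosen after seeing the data, gave -7.69 against protein-coding starts and 7.33 against MHSs away from both. The number of MHSs moved with the rule: 1013 within 200 bp of the TSS, 3538 within 1000 bp and 1308 of at least 100 bp. Without replicate 1, the rule found 1502 in replicate 2. The share that overlapped replicate 2 was 40.4% with reciprocal overlap of at least 50%, 54.0% where 50% of the MHS had to be covered, 69.9% where MHSs within 100 bp counted, 69.8% within 200 bp of the TSS, 60.2% within 1000 bp and 83.0% for MHSs of at least 100 bp. Without replicate 1, 85.0% of the MHSs of replicate 2 overlapped replicate 1. No paired analysis was possible because the libraries form 1 group. The lists carry no depth, and lncRNA starts are as annotated, so a shifted TSS would change which MHSs are in the set.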

Other observations

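Genes of cytokinin signalling, the pathway that passes the hormone signal from receptors through phosphotransfer proteins to response regulators, were among the genes with antisense lncRNAs, and were chosen after their values were seen. At RR3, a response regulator gene, the antisense gene AT2G09250 had MHSs of 544, 74 and 204 bp in replicate 1, of which the first and the last overlapped replicate 2. At ARR9, another response regulator gene, the TSS of AT3G08825 lay 245 bp from that of ARR9 itself. An MHS of 368 bp was centred 300 bp upstream of AT3G08825 and 545 bp from the ARR9 TSS, and met an MHS of 240 bp in replicate 2. An MHS of 574 bp in replicate 1 covered the start of ARR9. In replicate 2 alone, an MHS of 100 bp covered the TSS of AT3G08825. At AHP4, a phosphotransfer protein gene, an MHS of 388 bp spanned the TSS of AT3G03295, with its midpoint 152 bp downstream. It met an MHS of 357 bp in replicate 2, which also spanned the TSS. At CKX6, which encodes an enzyme that degrades cytokinins, an MHS of 362 bp spanned the TSS of AT3G63445, and replicate 2 held one of 415 bp.

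The share of lncRNA genes with an MHS in replicate 1, over genes more than 1000 bp from a protein-coding TSS, was alike on the chromosomes, from 47.7% on chromosome 2 to 53.4% on chromosome 5, and the intervals overlapped. Intergenic lncRNA genes with 1 exon had an MHS in 58.7% (exact 95% interval 55.9 to 61.5) of 1222 cases and those with more exons in 45.4% (37.9 to 53.1) of 174. In replicate 2 these shares were 47.9% (45.0 to 50.7) and 39.1% (31.8 to 46.8), with intervals that overlapped. Genes up to the median length of 321.5 bp and longer genes had shares of 58.0% (54.3 to 61.7) and 56.0% (52.2 to 59.7).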
